A study of Caenorhabditis elegans with 4 samples.

Results

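The centre of Caenorhabditis elegans chromosome IV is the stretch between the broad domains of piRNA genes that lie to its left and right. Regions bound by the GFP-tagged transcription factor GEI-11 belonged to it if their midpoint lay from 7000 to 13500 kb on chromosome IV, in WS220 coordinates counted from 1. The rule takes members by position alone, but its bounds were set with earlier results of these data known. They were 612 of the 6192 regions in the list that the authors called on both ChIP replicates together, and 612 of the 1856 on chromosome IV. The same span held 427 regions of the list called on replicate 1 and 272 of the list called on replicate 2.

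Chromatin immunoprecipitation with sequencing (ChIP-seq) was done on hermaphrodites of strain OP179 at larval stage L3, grown at 20 degrees Celsius on Escherichia coli. All 4 samples share 1 genotype, unc-119(ed3) III with the transgene wgIs179. The transgene carries unc-119(+) beside gei-11 fused to the TY1, EGFP and 3xFLAG tags, and it was put in by particle bombardment. The ChIP group has 2 libraries precipitated with goat antibodies to GFP, and the input group has 2 libraries of DNA from lysate that was not precipitated. Whole worms were used, so a region cannot be traced to a tissue, and the labelled genotype names no change at the gene's own copy. An untagged strain was not analysed here. Separate cultures are not stated for the replicates, so differences between them may be technical only. The p-values and intervals below take regions as their units, so they do not measure a spread between replicates. Total reads were 3773496 for ChIP replicate 1 and 3560372 for ChIP replicate 2, and 8331974 and 7222788 for the inputs. Uniquely mapped reads, which look rounded, had the opposite order in ChIP, at 2500000 for replicate 1 and 2800000 for replicate 2. Each input had 6000000 of these. The signal and read counts behind single regions were not analysed here.

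GEI-11, also called SNPC-4, is a subunit of the small nuclear RNA activating protein complex, which binds upstream of small nuclear RNA genes and recruits RNA polymerase. In worms it is also needed for transcription of piRNAs, the germline small RNAs that guide Argonaute proteins to foreign sequences, and most piRNA genes lie in the chromosome IV domains on either side of this span. The centres of worm autosomes recombine less than the arms and carry many of the conserved, widely expressed genes. The lists pair no region with a gene, and no genome or annotation of their build was used here, so regions are named by position and no DNA sequence is shown.

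The centre held more GEI-11 regions per Mb than the middles of the other autosomes, the left arm of chromosome IV and all other chromosomes as a whole, and fewer than the right piRNA domain. The combined list had 94.2 regions per Mb there (95% exact Poisson interval 86.8 to 102), the replicate 1 list 65.7 (59.6 to 72.2) and the replicate 2 list 41.8 (37.0 to 47.1). Members covered 219823 bp, or 3.38% of the span, against 3.10% in the middles of the other autosomes, 2.72% in the left arm, 3.11% in the left and 3.17% in the right piRNA domain, and 2.54% of the genome. The covered share thus differed less from that in the middles than the number of regions did. These intervals reflect counting error alone, as if each region were independent of its neighbours.

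The first question was how the centre compares with the middles of the other autosomes, taken as the 6.5 Mb around the midpoint of chromosomes I, II, III and V. These held 65.5 combined regions per Mb, and the centre of chromosome IV was 1.44 times as dense (95% exact interval 1.31 to 1.58; exact conditional binomial test, adjusted over 5 areas, p = 1.6e-13). This test, like the other density tests, counts regions, which are not replicates of a condition. It pools the 4 middles, so its p-value and interval leave out differences among chromosomes. In the replicate lists the ratio was 1.39 in replicate 1 and 1.52 in replicate 2. Among the 4 other autosomes the middle of chromosome III was the densest, at 77.1 combined regions per Mb (70.5 to 84.1). Chromosome II had 69.8 per Mb (63.6 to 76.6), chromosome I 59.1 (53.3 to 65.3) and chromosome V 56.2 (50.5 to 62.2). Their intervals all lay below that of the chromosome IV centre in the combined list. For chromosome III the intervals overlapped in the replicate lists, with 59.5 regions per Mb (53.8 to 65.8) in replicate 1 and 34.8 (30.4 to 39.6) in replicate 2. Against all other chromosomes together, at 52.5 per Mb, the ratio was 1.79 (1.65 to 1.95; exact conditional binomial test, adjusted p = 1.2e-35).

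Within chromosome IV the centre was denser than the left arm and less dense than the right piRNA domain, and both calls were lost among regions that both replicates found. The left arm, before 4500 kb, had 77.3 combined regions per Mb (69.4 to 85.9), and the centre was 1.22 times as dense (1.07 to 1.39; exact conditional binomial test, adjusted p = 0.0043). Restricted to regions that both replicates found, that ratio was 1.27 (1.01 to 1.59), and the exact test no longer passed after adjustment (adjusted p = 0.062). The left piRNA domain, from 4500 to 7000 kb, had 103 per Mb (90.6 to 116). The ratio of centre to left domain was 0.92 (0.79 to 1.06; exact conditional binomial test, adjusted p = 0.24). The test did not pass, and the interval runs from a centre that is less dense than this domain to one that is slightly denser. The right piRNA domain, from 13500 to 17200 kb, had 165 per Mb (152 to 178), and the centre was 0.57 times as dense (0.51 to 0.64; exact conditional binomial test, adjusted p = 9.3e-22). Restricted in the same way, the ratio of centre to right domain was 0.91 (0.74 to 1.14; exact test, adjusted p = 0.41). Without regions under 50 bp it was 0.72 (0.63 to 0.81). The last stretch of the chromosome, from 17200 kb to the end of the last region, held 30 regions, or 110 per Mb (74.2 to 157), an interval that includes the density of the centre.

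**Figure D1:**
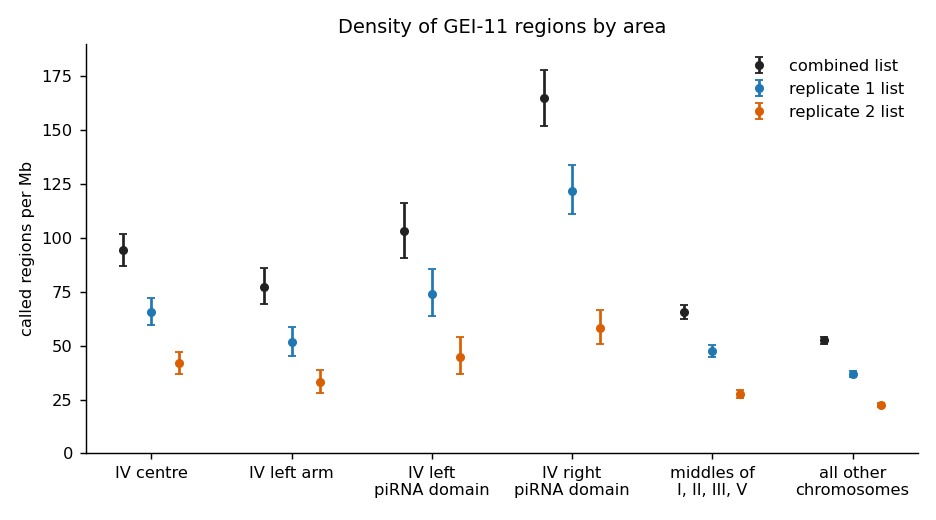
Called regions per Mb (vertical axis) in the centre of chromosome IV, in its left arm and piRNA domains, in the middles of chromosomes I, II, III and V, and over all chromosomes but IV, for the 3 lists. Points are densities and bars are 95% exact Poisson intervals. The centre has 94.2, 65.7 and 41.8 regions per Mb in the combined, replicate 1 and replicate 2 lists, above the middles of the other autosomes in each list.

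Members lay over the whole span. The 13 windows of 0.5 Mb held between 41 and 57 members, with a median of 46. The most, 57, lay from 7000 to 7500 kb, beside the left piRNA domain, and the fewest, 41, lay from 10500 to 11000 kb and from 12000 to 12500 kb. The variance of these numbers was 0.67 times their mean, where independent placement gives a value near 1, and the same ratio was 0.90 in replicate 1, 1.19 in replicate 2 and 0.94 for members found in both replicates. The windows held 22 to 39 regions of the replicate 1 list and 12 to 28 of the replicate 2 list. Across the 13 windows the numbers of the replicate lists had a Spearman's rho of 0.65, given as a description, since every list has 1 and the same input track listed beside it in the deposited sample sheet. The window from 10500 to 11000 kb was low in both, with 25 regions in replicate 1 and 12 in replicate 2.

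The left and right edges of the span differed. Density was 101 members per Mb from 7000 to 10000 kb (89.9 to 113) and 88.3 per Mb from 10000 to 13500 kb (78.7 to 98.7), and these intervals overlap. At the left edge the windows on either side of that edge held 54 and 57 combined regions, so no step was seen there. At the right edge the number rose from 42 regions in the last window of the centre to 81 in the first window of the right piRNA domain. The step was from 22 to 65 regions in replicate 1 and from 15 to 25 in replicate 2, and among combined regions found in both replicates it was from 11 to 19. The median width changed with it, from 296 bp in the last window of the centre to 158 bp in the next. The members closest to the bounds were 7012742 to 7012969, with a −log10 q of 6.30, and 13453368 to 13453816, with 5.52. The closest regions outside them were 6958719 to 6959097, with 3.36, and 13502806 to 13503273, with 8.92.

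**Figure D2:**
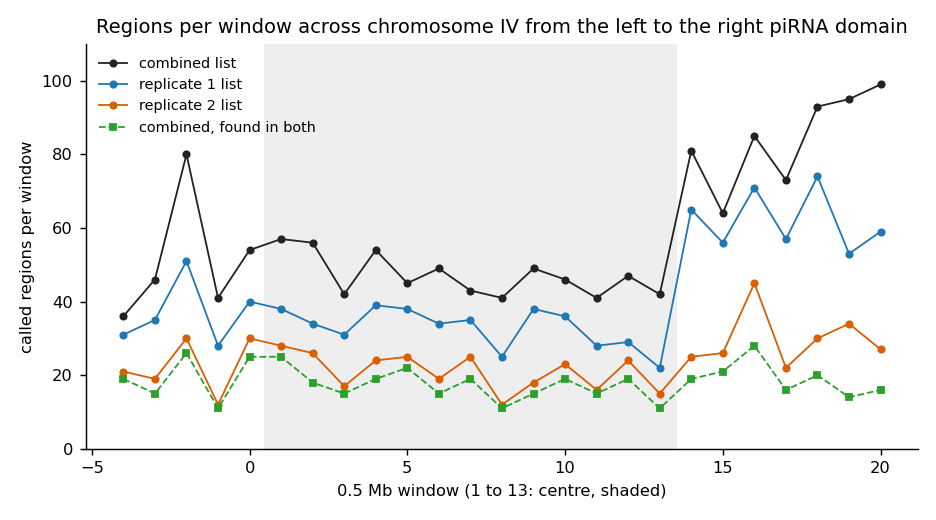
Number of called regions (vertical axis) in each 0.5 Mb window of chromosome IV (horizontal axis) for the 3 lists and for the combined regions found in both replicates. Windows 1 to 13, shaded, make up the centre, the windows before them are the left piRNA domain and those after them reach into the right one. Combined numbers stay between 41 and 57 in the shaded windows and rise to 81 in window 14.

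Neighbouring members were usually several kilobases apart. The 611 gaps between them had a median of 5632 bp and quartiles of 1625 and 14997.5 bp, and the shortest was 216 bp. Of the 612 members, 160 had a called neighbour within 1000 bp, which is 26.1% (95% exact interval 22.7 to 29.8%), against 22.6% of all combined regions and 20.0% (18.1 to 22.0%) in the middles of the other autosomes. It was 28.7% (24.0 to 33.8%) in the left arm, 28.4% (23.0 to 34.3%) in the left piRNA domain and 38.3% (34.4 to 42.3%) in the right one, and of these 3 intervals only that of the right domain lay wholly above the interval of the centre. In the replicate 1 list it was 18.0% in the centre and 18.2% over the genome. In the replicate 2 list it was 17.6% (13.3 to 22.7%) in the centre and 13.3% over the genome. In the middles of the other autosomes it was 16.7% (14.7 to 18.9%) in replicate 1 and 11.2% (8.97 to 13.7%) in replicate 2. A denser area brings regions closer together, and the part of density in this share was not tested. Joined across gaps of up to 1000 bp, the members formed 524 groups, of which 452 were single members, 58 were pairs and 14 held 3 or more. The largest groups had 4 members each, at 8066597 to 8070642 and at 9440820 to 9445063. The longest gap ran from 12906773 to 13004892, over 98120 bp, and neither replicate list had a region in it.

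The strongest member was among the strongest regions of the whole genome. Strength here means −log10 of the authors' q-value, so that a larger number is a smaller q. It serves to rank regions inside 1 list, grows with depth and is no measure of binding between lists, and it has no error for a single region. The combined list gave the region at 9510432 to 9514460, which spans 4029 bp, a −log10 q of 285, rank 2 of 6192. The replicate 1 list had 1 region there of 3896 bp, with a −log10 q of 200. The replicate 2 list had 4 regions there. The first spanned 375 bp from 9510479 with a −log10 q of 3.23, the second 1167 bp from 9511080 with 148, the third 1390 bp from 9512575 with 25.6 and the last 227 bp from 9514234 with 2.23. Both replicates thus had called signal at either end of the broad region, but in replicate 2 it was broken by stretches with no call.

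Several strong members lay in a stretch from 9438502 to the end of that region at 9514460. The group of 4 that starts at 9440820 holds the second strongest member, at 9444082 to 9445063, with a combined −log10 q of 184, against 144 for replicate 1 and 140 for replicate 2. Its left part, at 9440820 to 9442670, reached 55.0 in the combined list and was called as 2 regions in each replicate, whose strongest pieces reached 15.6 and 14.2. The weaker members between these, at 9442943 and 9443547, had a −log10 q of 4.93 and 2.78, and both were found by replicate 1 and neither by replicate 2. Further right, members at 9459180 to 9459680 and 9464495 to 9464858 had a −log10 q of 22.2 and 21.2, and both replicates found each of them. Replicate 1 gave them 13.4 and 11.4, and replicate 2 gave 8.57 and 8.31. From the end of the member at 9477898 to the next at 9508627, the combined list had no region.

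**Figure D3:**
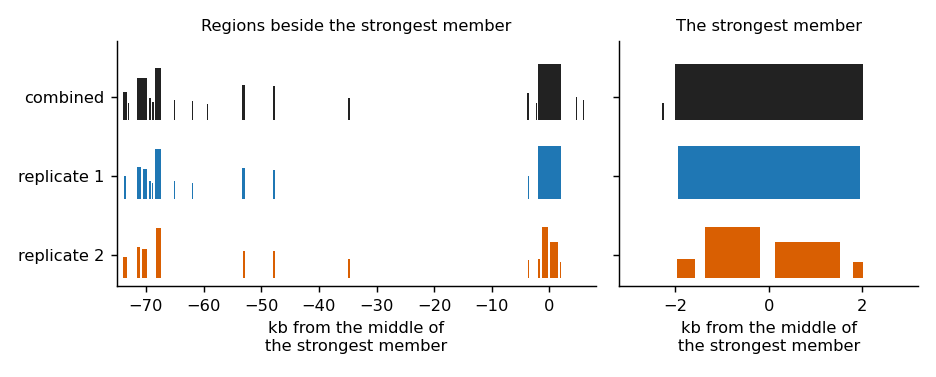
Called regions near the strongest member in the 3 lists, by distance in kb from its middle (horizontal axes), over a wide view on the left and a close view on the right. Each box spans a region, and taller boxes have a larger −log10 q on a log scale with no marked units. The combined and replicate 1 lists have 1 broad box at the strongest member, where the replicate 2 list has 4.

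Another strong pair lay further left. The region at 8428233 to 8429431 had a combined −log10 q of 159, against 115 for replicate 1 and 105 for replicate 2. Its neighbour, 1750 bp away at 8431182 to 8433374, had 112, 59.7 and 56.0 in the same order. The replicates put the left end of the first region at 8428235 and 8428330. A further pair lay at 7316495 to 7316914 and 7319777 to 7320609. The first of these had a combined −log10 q of 42.1, against 16.0 for replicate 1 and 27.7 for replicate 2, and the second had 35.6, 18.6 and 17.1. The first of this pair thus had the larger −log10 q in replicate 2, while the values of the second were close.

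The 20 strongest members were all found in both replicates, and they reached from a −log10 q of 285 down to 25.2, with the next at 24.9. They were not of one shape. Their widths ran from 335 to 4029 bp, with a median of 992 bp, and 10 were wider than 1000 bp while 5 were under 500 bp. The fifth strongest, at 13430105 to 13430542, spanned 438 bp and had a combined −log10 q of 73.6, with replicate values of 41.6 and 42.2. The replicates gave it nearly the same bounds, 13430114 to 13430536 and 13430126 to 13430538, and its nearest called neighbour was 13957 bp away. Other narrow ones were at 7486176 to 7486593 with a −log10 q of 31.5, at 13240458 to 13240832 with 31.0 and at 12795352 to 12795686 with 26.1. In contrast, the region at 11025391 to 11027996 was 2606 bp wide, the second widest member, with a −log10 q of 35.6. Each replicate called it as 2 regions, and the strongest pieces, with 11.9 and 11.3, lay in the left part in replicate 1 and in the right part in replicate 2.

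Other wide members were also split in the replicate lists. The region at 10935217 to 10937212 had a combined −log10 q of 49.4, and each replicate called it as 2 regions, of which the strongest reached 18.8 in replicate 1 and 19.5 in replicate 2. The region at 11592841 to 11594643 had 46.2, with 2 pieces in replicate 1, the strongest at 23.1, and 1 region of 1769 bp in replicate 2 at 16.0. All 21 members wider than 1000 bp were found in both replicates. Width went with strength, with a Spearman's rho of 0.8 over the members and 0.58 over the whole list. Neither the share of wide regions found in both nor the numbers that follow were worked out for the whole list. Only 9 of the 612 members were overlapped by 2 or more regions of replicate 1 and 8 by 2 or more regions of replicate 2, so most members stood for 1 region of a replicate list at most.

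The rest of the 20 had a −log10 q between 25.2 and 42.3. The region at 8794800 to 8795649 had a combined value of 42.3, against 21.5 for replicate 1 and 19.9 for replicate 2. The region at 10821302 to 10822507 had 35.2, 16.8 and 18.0, and that at 9196294 to 9197390 had 32.6, 17 and 15.6. The regions at 10252116 to 10253087, with 29.7, and 10918927 to 10919928, with 28.3, both had a larger −log10 q in replicate 1, at 20.3 against 11.1 and 15.6 against 11.4. The last, at 7084730 to 7085258, had 25.2, 10.5 and 12.3. Of the 20, 14 had a larger −log10 q in replicate 1 and 6 in replicate 2.

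**Figure D4:**
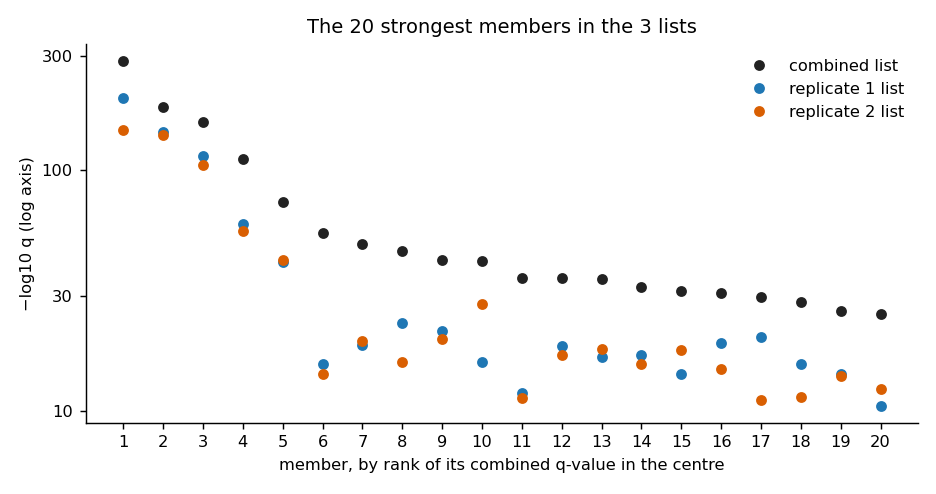
The −log10 q (vertical log axis) of the 20 strongest members found in both replicates, ordered by their rank in the centre (horizontal axis), in the 3 lists. For a replicate list the point is its strongest region that overlaps the member. Values fall from 285 to 55.0 over the first 6 members in the combined list and then more slowly to 25.2, with replicate values below the combined value for each member.

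The centre held strong regions at close to its share of the whole list, which was 9.88%. Of the 20 strongest combined regions genome-wide, 3 were members, but of the 100 strongest 6 were (6.00%, 95% exact interval 2.23 to 12.6%), and of the 620 strongest 58 were (9.35%, 7.18 to 11.9%). Both intervals include 9.88%. The median −log10 q was 4.13 in the centre (95% exact interval of the median 3.76 to 4.55), 4.28 in the middles of the other autosomes (4.07 to 4.54) and 3.89 in the left arm (3.60 to 4.45), and these intervals overlap. Over the 612 members 102 had a −log10 q over 10 and 197 were under 3. The quartiles were 2.68 and 8.03 in the centre, close to 2.78 and 7.63 in the whole list. All q-values in the list were below 0.01.

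The next question was how many members each replicate found by itself. Of the 612, 223 shared at least 1 bp with a region of each replicate list, which is 36.4% (95% exact interval 32.6 to 40.4%), against 35.2% of all combined regions. A further 159 (26.0%) were overlapped by replicate 1 only and 37 (6.05%) by replicate 2 only. The other 193 (31.5%) were overlapped by neither, against 30.7% of all combined regions. The share found in both was 36.8% in the middles of the other autosomes, 35.1% in the left arm and 37.4% in the left piRNA domain. The share in the centre minus that in each of these areas was -0.36, 1.38 and -0.92 percentage points, and these differences did not pass Fisher's exact test (two-sided, adjusted p = 0.93 for each). In the right piRNA domain 22.8% were found in both, 13.6 percentage points fewer than in the centre (Fisher's exact test, adjusted p = 9.4e-07). The difference was 8.30 points without regions under 50 bp (Fisher's exact test, adjusted p = 0.029) and 29.1 points among the 3096 regions with the smallest q-values. These tests count regions, which are not replicates of a condition, so they compare these lists only.

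Seen from the replicate lists, 231 of the 272 replicate 2 regions in the centre overlapped a replicate 1 region, which is 84.9% (80.1 to 89.0%), against 84.5% over the genome. In the other direction it was 229 of 427, or 53.6% (48.8 to 58.4%), against 51.1%. The 227 mutually best overlapping pairs of regions had midpoints a median of 32 bp apart, and they shared a median of 77.4% of their joint width. Their strengths had a Spearman's rho of 0.66, given as a description over pairs of lists with the same named input. Of these pairs 161 had a larger −log10 q in replicate 1, and 112 were wider in replicate 2. On the other chromosomes these numbers were 1109 and 828 of 1610 pairs. The pairs there had midpoints a median of 29 bp apart, a median shared width of 81.9% and a rho of 0.74. A few replicate regions had no combined counterpart. These were 36 of the 427 in replicate 1 (8.43%, against 8.45% over the genome), at a median −log10 q of 2.31, and 2 of the 272 in replicate 2 (0.735%, against 0.726%). The strongest was a 331 bp region of replicate 1 at 11182676 to 11183006 with a −log10 q of 4.83, which lay 3088 bp from the nearest combined region. None of the 36 overlapped a replicate 2 region.

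Replicate support followed strength, in the centre as in the rest of the list. The combined list was ranked by q and divided into 10 classes of nearly equal size, with class 1 the strongest. All 58 members of class 1 were found in both replicates, and so were 70 of the 72 of class 2 and 53 of the 61 of class 3. The number fell to 28 of 61 in class 4 and 13 of 53 in class 5, and in classes 6 to 10 it was 1 of 307. The rest of the list followed the same course, with 100% found in both in class 1, 97.6% in class 2, 82.1% in class 3, 49.1% in class 4, 18.5% in class 5 and 4.04% in class 6. The lone member of the weaker classes, at 9260367 to 9260634, had a combined −log10 q of 2.84, against 2.05 for replicate 1 and 2.28 for replicate 2, and it was the only region below class 6 in the whole list that both replicates found. It was singled out after its values were seen. Members that both replicates found had a median −log10 q of 9.83, against 3.76 for those of replicate 1 only, 3.90 for those of replicate 2 only and 2.51 for those of neither. The combined q-values use the reads of both replicates, so strength and support are not independent measures.

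The strongest members that neither replicate found were weak beside these. The first, at 12036336 to 12037157, was 822 bp wide with a −log10 q of 5.49. The next was 243 bp wide, at 9516962 to 9517204, with 5.25, and lies to the right of the strongest member. The others were at 8151779 to 8152058 with 4.51, at 12012327 to 12012725 with 4.13 and at 12122914 to 12123188 with 4.07. Of these 5, 3 lay in the window from 12000 to 12500 kb, which held 41 members in all. The weakest member, at 8026475 to 8026669, had a −log10 q of 2.00.

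Members were narrower than regions in the middles of the other autosomes. Their median width was 312 bp (95% exact interval of the median 298 to 324 bp) and the quartiles were 200 and 423.5 bp, against 370 bp (361 to 379 bp) in those middles. The replicate lists gave the same order, with 298 bp (280 to 311 bp) against 349 bp (338 to 357 bp) in replicate 1 and 340 bp (324 to 359 bp) against 394 bp (369 to 414 bp) in replicate 2. In none of the 3 lists did the intervals overlap when the middles were pooled. Taken singly in replicate 2, chromosomes III (339 to 402 bp) and V (352 to 445 bp) had intervals that overlapped that of the centre. The interval of chromosome II (359 to 436 bp) met it, and that of chromosome I (379 to 509 bp) lay above it. In the combined and replicate 1 lists the interval of every single middle lay above that of the centre. The left arm of chromosome IV, with 310.5 bp (284 to 326 bp), and the left piRNA domain, with 293 bp (249 to 325 bp), had intervals that overlapped that of the centre. The right piRNA domain was narrower, with 138 bp (121 to 157 bp). No test was made of widths, and the lower width is not particular to the centre within chromosome IV.

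The width difference was seen most clearly among the weaker members. Among rank classes 1 and 2 the median was 513 bp in the centre (445 to 585 bp). It was 604 bp in the middles of the other autosomes (542 to 656 bp), and the intervals overlap. In class 1 alone the median of the centre was not lower, at 736.5 bp against 710 bp. In class 2 it was 444.5 bp against 533 bp. In classes 3 to 5 the medians were 366 bp (346 to 392 bp) and 396 bp (383 to 411 bp), again with overlapping intervals. Over classes 1 to 5 together they were 410 bp (388 to 428 bp) and 449 bp (428 to 469 bp), so the intervals met at 428 bp. In classes 6 to 8 they were 226 bp (208 to 260 bp) and 327 bp (318 to 344 bp), and in classes 9 and 10 they were 156 bp (129 to 179 bp) and 277.5 bp (265 to 291 bp). In these weaker classes the intervals did not overlap. The left arm had medians of 231 bp in classes 6 to 8 and 188.5 bp in classes 9 and 10, close to those of the centre. Among members found in both replicates the median was 436 bp (403 to 470 bp), against 478 bp (449 to 507 bp) in the middles, with overlapping intervals. Members found in neither had a median of 191 bp (176 to 200 bp), against 307.5 bp (294 to 315 bp). Whether the difference in width changes with strength was not tested.

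**Figure D5:**
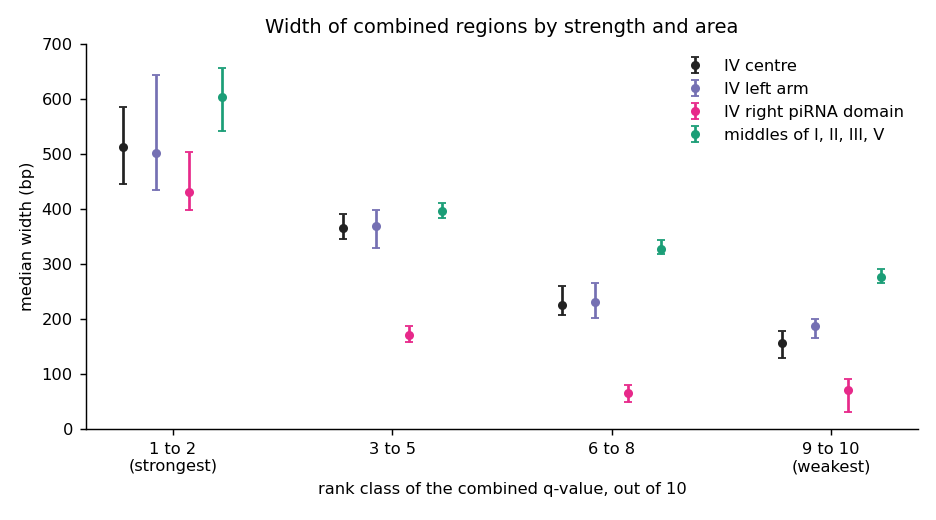
Median width in bp (vertical axis) of combined regions by rank class of their q-value (horizontal axis, class 1 strongest) in the centre, the left arm and the right piRNA domain of chromosome IV and in the middles of the other autosomes. Bars are 95% exact intervals of the median. The centre and the left arm lie near each other in every class, and the centre falls to 156 bp in classes 9 and 10, where the middles of the other autosomes stay at 277.5 bp.

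Very narrow members made up part of this. There were 36 members under 50 bp, or 5.88% (95% exact interval 4.15 to 8.05%), against 5.51% of the whole list. The share was 1.94% (1.34 to 2.71%) in the middles of the other autosomes and 25% (21.6 to 28.6%) in the right piRNA domain. It was 4.89% (2.87 to 7.71%) in the left arm and 11.3% (7.69 to 15.8%) in the left piRNA domain. Both of the last intervals overlap that of the centre. All 36 were in rank classes 6 to 10, and the strongest had a −log10 q of 4.09. Neither replicate list overlapped 24 of them, replicate 1 only overlapped 11 and replicate 2 only overlapped 1. They were spread over 12 of the 13 windows, and 7 had a called neighbour within 1000 bp. The narrowest spanned 2 bp. The replicate 2 list had no region under 50 bp in the centre, while 5.62% of its replicate 1 regions were that narrow. Without such members the median width was 320 bp (307 to 330 bp). This is still below the 370 bp (361 to 379 bp) in the middles of the other autosomes, from which such regions were not left out.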

How the data were processed

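The authors deposited 3 lists of regions, 1 for each ChIP replicate and 1 for merged ChIP alignments, each region with a q-value against input. PeakSeq was the caller and WS220 the build, per the file headers, while the deposited sample sheet names WS190, and comment lines record that coordinates were moved between builds. Neither the aligner nor the caller's settings are given in the sources used here. Read counts per library were deposited in the sample sheet as reads of 36 bases, and its mapped reads look rounded.

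Regions were assigned by midpoint. Overlap meant at least 1 bp. Areas were compared by two-sided exact conditional binomial tests of densities and Fisher's exact tests of shares, each adjusted by Benjamini-Hochberg over 5 areas. Chromosome length was the end of the last called region. Intervals are 95% exact (Poisson, Clopper-Pearson, or binomial order statistics for medians) and cover counting error only. Reads without molecular identifiers may stem from 1 molecule. The named regions are the 20 strongest members found in both replicates, the 5 widest, the 5 strongest found in neither, the longest gap and the extreme windows. Members, areas and rules were chosen with earlier results of these data known. Functions were tested on simulated data. Python 3.11.15 and scipy 1.17.1 were used.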

Additional observations from a re-analysis of the deposited data

How the results depend on the processing

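Of 93 alternatives to 15 values, 66 stayed within the main interval or on the same side of the threshold with the same direction. The density in the centre, 94.2 regions per Mb, ranged from 41.8 to 65.7 in single replicate lists and was 34.3 among regions found in both, 46.9 among the 3096 regions with the smallest q-values and 80.6 after merging within 1000 bp. Among regions found in both replicates the ratio to the left arm, 1.27, and that to the right piRNA domain, 0.91, no longer passed. The share found in both, 36.4%, was 31.0% with 50% reciprocal overlap, 72.8% among the best 3096 and 40.8% after merging. The overlap of replicate 2 by replicate 1, 84.9%, was 75% with 50% reciprocal overlap and 72.1% with equal numbers of the strongest regions. The median width, 312 bp, ranged from 298 to 340 bp in single lists and was 436 bp among regions found in both and 410 bp among the best 3096. The share with a close neighbour, 26.1%, ranged from 17.6% to 18.0% in single lists and was 9.42% among regions found in both and 15.1% among the best 3096. Uncalled differences in the share found in both changed sign against the left arm (-0.85 points with 50% overlap, -0.55 among the best 3096), against the middles of the other autosomes (1.88 among the best 3096, 1.19 without regions under 50 bp, 1.56 after merging) and against the other chromosomes (0.34, 1.11 and 1.80 in the same order). The best 3096 and the regions found in both are subsets of the list, and merging makes fewer and wider regions, so these densities could only fall. By their rules, 50% reciprocal overlap and a replicate 1 list cut to its strongest regions could only lower the shares that overlap. For the other shifts the cause was not tested. Full chromosome lengths were not run, since the lists do not give them. No paired analysis was possible because no deposited value belongs to an input library alone except its read number. Weak regions were rarely found in both replicates, and how far depth limits them was not tested.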
